A study of Mus musculus with 6 samples.

Results

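miR-124, miR-9, miR-129 and miR-153 are miRNAs best known from neurons, and their levels were followed here in small extracellular vesicles (sEVs) secreted by mouse islets. Members were the entries of the deposited table named miR-124, miR-9, miR-129 or miR-153, with any arm or hairpin suffix, which gave 10 of the 718 entries. The 10 were mmu-miR-124-3p, mmu-miR-9-5p and mmu-miR-9-3p, 5 entries of miR-129 and miR-129b, and both arms of miR-153. mmu-miR-124-3p led the choice, and it was chosen by its levels in these same libraries, with its difference between the diets already known. The difference between the diets is therefore given for the members as a description and without a p-value.

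The vesicles, labelled exosomes, came from cultured islets of WT mice of the strain C57/B6J. Normal islet-derived sEVs (nid-sEVs) were from mice on NCD, the normal chow diet, and adaptive islet-derived sEVs (aid-sEVs) were from mice on HFD, the high-fat diet used to induce β cell compensation. There were 3 libraries in each group, and the study's methods speak of biological replicates in general, while neither they nor the labels say for these libraries whether each came from separate animals or a pool. Levels are given as RPM, read counts scaled to the same total in every library, and whole reads could be recovered from every value. Library totals were 50534 to 129152 reads in nid-sEVs and 122266 to 519315 reads in aid-sEVs, so nid-sEVs were the shallower group. The lowest level that 3 reads can show was 23.2 to 59.4 RPM in nid-sEVs and 5.78 to 24.5 RPM in aid-sEVs. nid-sEV replicate 1 stood apart, with 33.4% of its reads in entries without a miRBase name, against 6.61% to 9.45% in the other 5 libraries.

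As background, miR-124 and miR-9 are abundant in neurons, and in most other cells their genes are kept silent by the repressor REST. β cells, like neurons, lack REST and express a number of genes shared with neurons, among them those for regulated secretion. In islet cells miR-124 is known to act on the transcription factor Foxa2 and on proteins of vesicle fusion. miR-9 acts on Onecut2, a transcription factor that controls the exocytosis inhibitor granuphilin. miR-129 and miR-153 are also enriched in brain, and the gene of miR-153 lies in Ptprn2, which encodes the secretory granule protein phogrin. miR-375, used here as a reference, is the leading miRNA of islet endocrine cells.

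The mature sequences are shown because a miRNA recognises its targets mainly through its seed, bases 2 to 8, and the seeds show which members can share targets. RefSeq sequences of the build GRCm38.p6 matched 8 of the 10 members by name, and mmu-miR-124-3p and mmu-miR-129-1-3p were not among them. Capitals mark the seed, and each sequence runs 5′ to 3′.
mmu-miR-9-5p: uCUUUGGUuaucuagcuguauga
mmu-miR-9-3p: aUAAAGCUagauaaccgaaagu
mmu-miR-129-5p: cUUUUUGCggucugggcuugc
mmu-miR-129-2-3p: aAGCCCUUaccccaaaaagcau
mmu-miR-129b-5p: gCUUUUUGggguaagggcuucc
mmu-miR-129b-3p: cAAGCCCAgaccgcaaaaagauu
mmu-miR-153-3p: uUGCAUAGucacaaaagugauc
mmu-miR-153-5p: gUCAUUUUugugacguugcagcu
Each of these 8 carried a seed, at bases 2 to 8, different from those of the other 7. The seed of miR-129b-5p, CUUUUUG, also lies at the start of miR-129-5p, offset by a base. Such offset overlaps were not searched for. Among the 424 of 479 miRBase names in the table that had a RefSeq sequence, no other entry shared a seed with these 8. mmu-miR-124-3p and mmu-miR-129-1-3p were not compared, so a seed that either shares with another member would have been missed.

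The genes of the members lie at 10 hairpins on GRCm38. miR-124 has 3, Mir124a-1 at chr14:64590657-64590741, Mir124a-2 at chr3:17795662-17795770 and Mir124a-3 at chr2:180894040-180894107. Mir124a-1 and Mir124a-2 each overlap an exon of a lincRNA. Only the last bases of Mir124a-3 overlap a lincRNA, which starts at position 180894105. miR-9 also has 3, Mir9-1 at chr3:88215598-88215686, Mir9-2 at chr13:83738814-83738885 and Mir9-3 at chr7:79505264-79505353. Mir9-1 and Mir9-3 are in lincRNA introns, and Mir9-2 overlaps a lincRNA exon. miR-9-5p and miR-9-3p have the same sequence at all 3, so the reads do not show which hairpin was transcribed. Mir153 at chr12:117250817-117250885 lies on the plus strand in an intron of Ptprn2.

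miR-129-5p is made from both Mir129-1, at chr6:29022619-29022691, and Mir129-2, at chr2:94241364-94241453, while their 3p arms differ and are listed apart as miR-129-1-3p and miR-129-2-3p. Mir129b, at chr2:94241378-94241442, lies within Mir129-2 on the opposite strand. In the sequences above, miR-129-5p is complementary to miR-129b-3p over 20 bases, and miR-129-2-3p to miR-129b-5p over 20 bases. The sources used here do not say whether reads were counted by strand. If they were not, the reads of these partners cannot be told apart.

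miR-124-3p, the neuronal miRNA that acts on Foxa2, was far higher in aid-sEVs, and its nid-sEV level rested on few reads. The 3 nid-sEV libraries, in the order of their replicate numbers, held 6, 9 and 2 reads of it, and the 3 aid-sEV libraries held 789, 845 and 354. These reads were 46.5, 137.05 and 39.6 RPM in nid-sEVs and 1519, 2399 and 2895 RPM in aid-sEVs. Every aid-sEV library was above every nid-sEV library, the nearest being aid-sEV replicate 1 and nid-sEV replicate 2. The means were 74.4 ± 54.4 RPM in nid-sEVs and 2271 ± 697 RPM in aid-sEVs (SD, n = 3 each), a ratio of 30.5. The difference in mean log2(RPM + 1), in which the pseudocount of 1 dampens changes of low values, was 5.09 (SE 0.65), and 4.87 without nid-sEV replicate 1. In bulk vesicle RNA, fewer vesicles from a cell type and less of a miRNA in each vesicle cannot be told apart.

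Library totals overlapped between the groups only through nid-sEV replicate 1 and aid-sEV replicate 3, and the levels of miR-124-3p did not overlap. The values below describe a member that was chosen by them, and the part of depth in its difference was not tested. The totals of nid-sEV replicate 1 and aid-sEV replicate 3 were close, at 129152 and 122266 reads, and of these 6 and 354 were miR-124-3p. The ratio of these levels was 62.3, with an exact 95% interval for counting error of 28.3 to 171. In the same pair the ratio of miR-129-5p was 1.75, with an exact interval of 1.25 to 2.49. Of the reads of nid-sEV replicate 1, 33.4% were in entries without a miRBase name. Over the pooled reads of miR-124-3p, 17 of 245357 against 1988 of 993825, the ratio was 28.9, with an exact interval of 18.0 to 49.7. These intervals cover counting error and leave out the spread between libraries, so they do not test the difference between the groups. When every library was thinned to 50534 reads, no nid-sEV library kept more than 6 reads of miR-124-3p and no aid-sEV library fewer than 83. By rank among the listed entries, miR-124-3p was at positions 271, 196 and 246 in nid-sEVs and at 62, 52 and 47 in aid-sEVs.

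The levels of miR-124-3p also differed within aid-sEVs by more than counting error. The 95% Wilson interval was 1417 to 1629 RPM in aid-sEV replicate 1, 2243 to 2566 RPM in replicate 2 and 2609 to 3213 RPM in replicate 3. In nid-sEVs the intervals of the 3 libraries overlapped, the highest reaching 260 RPM in replicate 2.

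**Figure D1:**
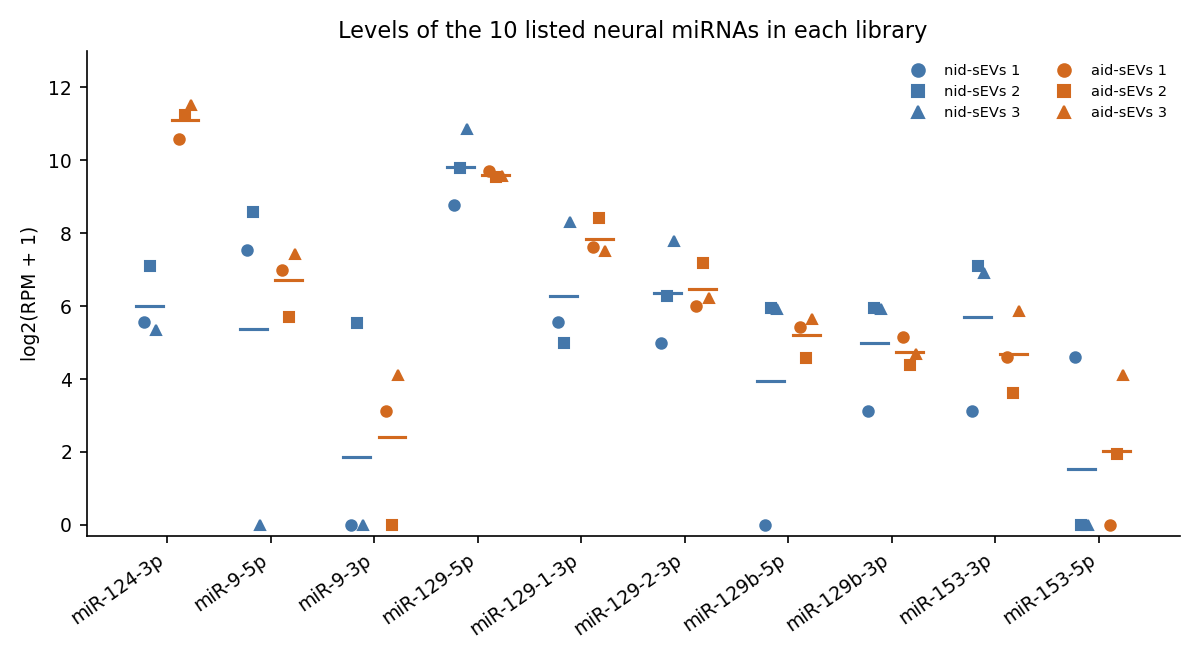
Levels of the 10 members as log2(RPM + 1), 1 point for each library and a bar for the group mean, nid-sEVs in blue and aid-sEVs in orange. Only miR-124-3p has all 3 aid-sEV points above all 3 nid-sEV points, and points at 0 are libraries with no read.

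Of the 10 members, 1 was called higher in aid-sEVs and 0 were called lower, where a call needs an adjusted p under 0.05 (limma, Benjamini-Hochberg) and a log2 difference over 1. Among all 718 entries, 15.6% were called higher and 1.81% lower. The 1 call was miR-124-3p, which was chosen by this contrast, so these counts describe the members and do not test them. No member was lower at an unadjusted p under 0.05 in limma, edgeR or DESeq2 either, a count of 0 in each. In limma 42 of the 718 entries were lower at that p, so 0 of 10 is near the share over all entries. For edgeR and DESeq2 the unadjusted counts over all entries were not taken. DESeq2 on the recovered reads divided the calls over all entries in another way, with 65 higher and 50 lower against 112 and 13 in limma. Every aid-sEV library was above every nid-sEV library in 1 of the 10 members, against 24.2% of all entries, and below in 0, against 7.52%. The median log2 difference was 0.53 over the members and 1.11 over all entries. With entries at 0 throughout a group set at the smallest change their depth allows, the median over all entries was 0. Over the entries detected in all 6 libraries it was -0.21.

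miR-9 went undetected in nid-sEV replicate 3. miR-9-5p, the arm that targets Onecut2, had 186, 381 and 0 RPM in nid-sEVs and 125, 51.1 and 172 RPM in aid-sEVs. nid-sEV replicate 2 was the highest and nid-sEV replicate 3 had no read, so the aid-sEV libraries fell inside the range of nid-sEVs. A count of 0 in that library allows a level of up to 59.4 RPM. The mean was lower in aid-sEVs, 116 ± 60.8 against 189 ± 190 RPM (SD, n = 3), while the log2 difference was 1.33 (SE 2.27), so the mean and the log value had opposite signs. Without nid-sEV replicate 3 the log2 difference was -1.36. The other arm, miR-9-3p, was read 0, 3 and 0 times in nid-sEVs and 4, 0 and 2 times in aid-sEVs, which was too few to compare. Where miR-9 was detected, the 5p arm made up 89.3% to 100% of the reads of both arms.

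miR-129-5p, the most abundant of the other members, differed by less than the spread between libraries. Its levels were 434, 883 and 1860 RPM in nid-sEVs and 832, 744 and 761 RPM in aid-sEVs. The aid-sEV libraries were close together, inside the range that nid-sEVs spanned. The means were 1059 ± 729 and 779 ± 46.7 RPM (SD, n = 3), and the log2 difference was -0.20 (SE 0.61). Its sign turned with the scaling, to 0.30 with TMM-scaled RPM and 0.01 with centring on the entries in all libraries, and it was 0.33 without nid-sEV replicate 3. Over the pooled reads the ratio of aid-sEVs to nid-sEVs was 0.934, with an exact interval for counting error of 0.801 to 1.09.

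The 3p arms of miR-129 overlapped between the groups as well. miR-129-1-3p had 46.5, 30.5 and 317 RPM in nid-sEVs and 194, 341 and 180 RPM in aid-sEVs, with a log2 difference of 1.56 (SE 0.99), which was 0.90 without nid-sEV replicate 2 and 2.57 without nid-sEV replicate 3. nid-sEV replicate 3 was within the range of aid-sEVs, and the other nid-sEV libraries were below it. miR-129-2-3p had 31.0, 76.1 and 217.7 RPM in nid-sEVs and 63.5, 144.8 and 73.6 RPM in aid-sEVs, with a log2 difference of 0.13 (SE 0.89). nid-sEV replicate 3 was the highest of the 6 libraries and nid-sEV replicate 1 the lowest. The log2 difference of miR-129-2-3p was -0.04 when only reads with a miRBase name were used and ran from -0.55 without nid-sEV replicate 1 to 0.84 without nid-sEV replicate 3, so it had no stable sign.

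The arms of miR-129 were not in a fixed proportion. miR-129-5p made up 84.8%, 89.2% and 77.7% of the reads of miR-129-5p and both 3p arms in nid-sEVs, and 76.3%, 60.5% and 75.0% in aid-sEVs. The shares did not overlap, but by a small margin, since the exact interval in nid-sEV replicate 3 was 69.2% to 84.8% and that in aid-sEV replicate 1 was 72.6% to 79.8%. aid-sEV replicate 2 had the lowest share, with an exact interval of 55.7% to 65.1%. Between the 3p arms, miR-129-1-3p took 70.2% to 75.4% in aid-sEVs and 28.6% to 60% in nid-sEVs. The nid-sEV values rested on 7 to 27 reads in a library, and in each nid-sEV library the exact interval included 70.2%.

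The arms of Mir129b, the hairpin opposite Mir129-2, were low. miR-129b-5p had 0, 60.9 and 59.4 RPM in nid-sEVs and 42.4, 22.7 and 49.1 RPM in aid-sEVs, and miR-129b-3p had 7.74, 60.9 and 59.4 RPM in nid-sEVs and 34.7, 19.9 and 24.5 RPM in aid-sEVs. In both, nid-sEV replicate 1 was below the aid-sEV libraries and the other nid-sEV libraries were above them. The log2 difference of miR-129b-5p was 1.26 (SE 1.75), but -0.72 without nid-sEV replicate 1, and 2.26 and 2.24 without nid-sEV replicates 2 and 3, and its mean RPM was slightly lower in aid-sEVs, 38.0 against 40.1. The log2 difference of miR-129b-3p was -0.26 (SE 1.02), but 0.22 with TMM-scaled RPM, -1.20 without nid-sEV replicate 1, and 0.22 and 0.20 without nid-sEV replicates 2 and 3. Neither had a stable sign.

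miR-153-3p, the arm with most of the reads of Mir153 in 5 of the 6 libraries, had 7.74, 137.05 and 119 RPM in nid-sEVs and 23.1, 11.4 and 57.3 RPM in aid-sEVs. These were 1, 9 and 6 reads and 12, 4 and 7 reads. nid-sEV replicates 2 and 3 were above the aid-sEV libraries and nid-sEV replicate 1 was below them. The means were 87.8 ± 70.0 and 30.6 ± 23.8 RPM (SD, n = 3), with a log2 difference of -1.02 (SE 1.32). It was -2.31 without nid-sEV replicate 1 and -0.32 without nid-sEV replicate 2, and stayed below 0 with each library left out. miR-153-5p was read 3, 0 and 0 times in nid-sEVs and 0, 1 and 2 times in aid-sEVs, so no difference was detectable at this depth.

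**Figure D2:**
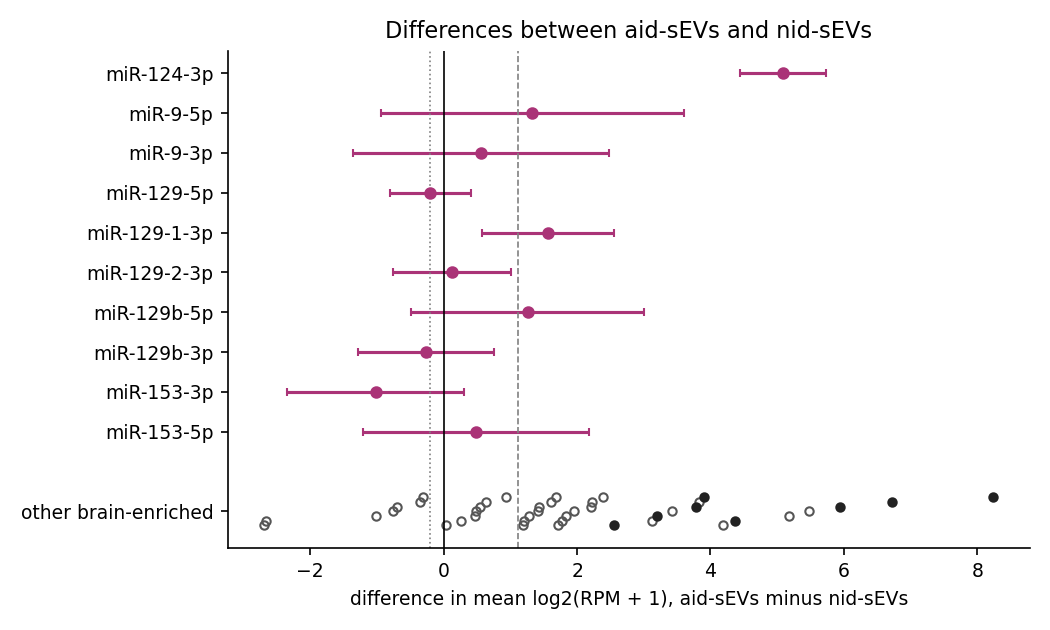
Difference in mean log2(RPM + 1), aid-sEVs minus nid-sEVs, for the 10 members (points, with bars for the SE) and for 42 other brain-enriched entries (bottom line, filled where called). The dashed line is the median of all entries, 1.11, and the dotted line that of the entries in all libraries, -0.21. miR-124-3p lies at 5.09, and the other 9 members lie between -1.02 and 1.56.

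The other 9 members overlapped between the groups and miR-124-3p did not, so the make-up of the neural miRNAs differed. The 9 entries of miR-9, miR-129 and miR-153 summed to 736, 1675 and 2632 RPM in nid-sEVs and to 1323, 1337 and 1350 RPM in aid-sEVs. The aid-sEV sums, with a mean of 1337 ± 13.3 RPM (SD, n = 3), were inside the range of nid-sEVs. miR-124-3p made up 5.94%, 7.56% and 1.48% of the reads of all 10 members in nid-sEVs and 53.5%, 64.2% and 68.2% in aid-sEVs. miR-129 with miR-129b took 61.3% to 94.1% in nid-sEVs and 25.6% to 41.1% in aid-sEVs. Since shares of a whole move together, the lower share of miR-129 in aid-sEVs goes with the higher share of miR-124-3p, while the summed level of miR-129 was 1381 ± 1024 RPM in nid-sEVs and 1176 ± 92.3 RPM in aid-sEVs (SD, n = 3).

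**Figure D3:**
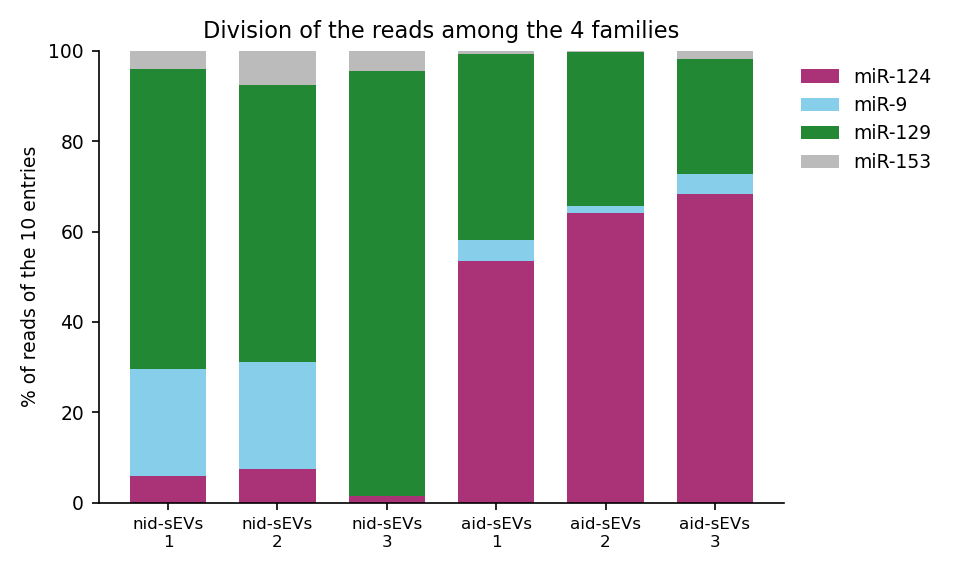
Share of the reads of the 10 members, in percent, that belonged to miR-124, miR-9, miR-129 and miR-153 in each library. miR-129 holds over 61% in each nid-sEV library, and miR-124 holds over 53% in each aid-sEV library.

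A ratio of 2 members in 1 library does not depend on the library total. miR-124-3p had 0.107, 0.155 and 0.0213 reads for each read of miR-129-5p in nid-sEVs and 1.83, 3.23 and 3.81 in aid-sEVs. miR-129-5p was the more abundant of the pair in the 3 nid-sEV libraries and miR-124-3p in the 3 aid-sEV libraries. The ratio of miR-124-3p to miR-9-5p was 0.25 and 0.36 in nid-sEV replicates 1 and 2 and 12.1, 46.9 and 16.9 in aid-sEVs. nid-sEV replicate 3 gives no such ratio, since it had no read of miR-9-5p.

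miR-129-5p followed miR-375-3p, the islet reference, closely from library to library. miR-375-3p had 56584, 150356 and 346480 RPM in nid-sEVs and 163590, 155673 and 136424 RPM in aid-sEVs. For each 1000 reads of miR-375-3p, miR-129-5p had 7.66, 5.87 and 5.37 reads in nid-sEVs and 5.09, 4.78 and 5.58 in aid-sEVs. The level of miR-129-5p itself spanned a 4.29-fold range over the 6 libraries, and its ratio to miR-375-3p a 1.60-fold range. Among the entries detected in all 6 libraries, miR-129-5p had the narrowest range of this ratio, against a median of 12.7-fold. miR-129-2-3p was 5th in that order, with a range of 2.39-fold, and miR-129b-3p was 11th with 3.17-fold, while miR-129-1-3p was 94th with 10.8-fold, close to the median. These orders were looked at after the values were seen, and abundant entries vary less by counting error.

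The proportion to miR-375-3p varied more in the other families, as it did in miR-129-1-3p. miR-153-3p spanned 12.5-fold and was 107th in the same order. miR-124-3p had 0.821, 0.911 and 0.114 reads for each 1000 of miR-375-3p in nid-sEVs and 9.29, 15.4 and 21.2 in aid-sEVs, and its ratio spanned 186-fold. miR-9-5p had 3.28, 2.53 and 0 in nid-sEVs and 0.765, 0.328 and 1.26 in aid-sEVs. The ratios of miR-9-5p in nid-sEV replicates 1 and 2 were above those of the aid-sEV libraries, and nid-sEV replicate 3, with no read, was below them.

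**Figure D4:**
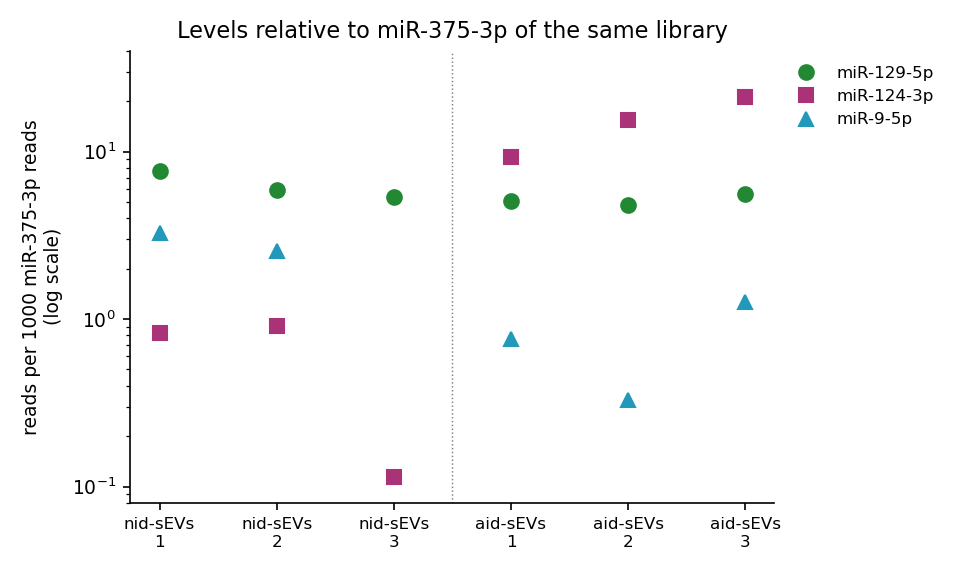
Reads of miR-129-5p, miR-124-3p and miR-9-5p for each 1000 reads of miR-375-3p of the same library, on a log axis. miR-129-5p stays between 4.78 and 7.66 in the 6 libraries, miR-124-3p is below 1 in nid-sEVs and above 9 in aid-sEVs, and the point of miR-9-5p in nid-sEV replicate 3 is left out because it had no read.

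The entries whose log2(RPM + 1) over the 6 libraries ran most like that of a member were named among 188 candidates with a miRBase name and a mean of at least 100 RPM. For miR-124-3p they were miR-183-5p (Pearson r = 0.998), miR-700-3p (r = 0.993) and miR-465a-5p (r = 0.990). miR-183-5p, which is transcribed with miR-96 and miR-182 in sensory and endocrine cells, had 2352 ± 1091 RPM in nid-sEVs and 18632 ± 4639 RPM in aid-sEVs (SD, n = 3). All 3 were higher in aid-sEVs, and since the points are 3 libraries of each group and share the library totals, these correlations largely restate the separation of the groups.

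For the members that overlapped between the diets, the likest entries were different. miR-129-5p ran most like miR-375-3p (r = 0.972), miR-5124a (r = 0.935) and miR-125a-5p (r = 0.928). miR-9-5p ran most like miR-29b-3p (r = 0.993), miR-21a-5p (r = 0.979) and miR-26b-5p (r = 0.971), with nid-sEV replicate 3, where it had no read, far below the other points. miR-153-3p ran most like miR-485-5p (r = 0.926), miR-29c-3p (r = 0.886) and miR-668-3p (r = 0.878), of which miR-485 and miR-668 are on the list of brain-enriched miRNAs used below. With 6 libraries such values are descriptions and say nothing of shared control.

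Other brain-enriched miRNAs were compared as a list of 32 numbers, of which 28 were in the table with 42 entries. The list was drawn up with earlier results of these data known, so its calls and p-values are descriptions and not tests. Of the 42, 8 were called higher in aid-sEVs and 0 lower (limma), or 19.0% called higher against 15.6% of all entries. Every aid-sEV library was above every nid-sEV library in 18 of the 42, against 24.2% of all entries, and below in 0, against 7.52%. Without adjustment, at p under 0.05, 16 were higher and 0 lower in limma, against 157 and 42 over all entries. After adjustment, edgeR without a filter called 6 higher and 0 lower, against 56 and 7 over all entries. DESeq2 called 7 higher and 0 lower, against 65 and 50. Unadjusted, edgeR without a filter had 15 higher and 1 lower. The matching counts over all entries were not taken, so these cannot be set against a background. On the log2(RPM + 1) scale the largest differences of the list were in miRNAs with no read in nid-sEVs, where the depth supports smaller lower bounds. Such entries are listed only through their aid-sEV reads and show no spread in nid-sEVs. miR-346-5p had 0 reads in nid-sEVs and 309 ± 82.1 RPM in aid-sEVs (SD, n = 3), at least 5.21-fold above the highest nid-sEV level that 3 reads allow in a library (limma adjusted p = 0.0040). miR-384-3p was at least 1.81-fold higher on the same terms, with 107 ± 32.0 RPM in aid-sEVs (limma adjusted p = 0.0064), and miR-488-3p at least 1.11-fold higher, with 66.0 ± 31.7 RPM (limma adjusted p = 0.010).

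miR-383-5p was the called entry of the list with the most reads in nid-sEVs. It had 170 ± 78.0 RPM in nid-sEVs and 937 ± 62.2 RPM in aid-sEVs (SD, n = 3), a log2 difference of 2.55 (SE 0.51, limma adjusted p = 0.024). miR-541-3p was read 1 time in nid-sEVs and 39 times in aid-sEVs, with a limma adjusted p of 0.049. miR-135a-5p, miR-874-3p and miR-137-3p, the last known for a role in neuronal maturation, were called higher with 13, 11 and 7 reads in aid-sEVs and 0 in nid-sEVs, and their levels were under the 59.4 RPM that 3 reads give in the smallest library. The other 34 entries of the list were not called, among them miR-212-5p, with 92.0 ± 85.0 and 968 ± 168 RPM (SD, n = 3, limma adjusted p = 0.14). The median log2 difference of the list was 1.70 over 42 entries, and 0.59 when the entries at 0 throughout a group were set at the smallest change their depth allows, against 1.11 and 0 over all entries.

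Markers of other cell types were measured in the same libraries. The summed level of the 6 leukocyte entries was 1999 to 5756 RPM in nid-sEVs and 670 to 1415 RPM in aid-sEVs. miR-146a-5p made up most of this sum, with means of 3383 RPM in nid-sEVs and 1064 RPM in aid-sEVs. The 6 red cell and liver entries summed to 4670 to 14502 RPM in nid-sEVs and 752 to 1579 RPM in aid-sEVs. Both sums were lower in every aid-sEV library. Taken singly, 2 of the 6 leukocyte entries and 3 of the 6 red cell and liver entries were below without overlap, against 7.52% of all entries. The 11 islet endocrine entries, of which miR-375-3p made up most, summed to 80758 to 367080 RPM in nid-sEVs and 223504 to 241267 RPM in aid-sEVs, overlapping. In 6 of these 11, against 24.2% of all entries, every aid-sEV library was above every nid-sEV library. Among the 6, the ratio of means was 11.01 in miR-182-5p, 7.92 in miR-183-5p and 3.59 in miR-7b-5p. The other 5 overlapped. Their ratios were 0.823 in miR-375-3p, 0.250 in miR-184-3p, 0.890 in miR-7a-5p and 1.41 in miR-96-5p, and miR-183-3p had no read in nid-sEVs. The 3 glial entries summed to 0 to 163 RPM in nid-sEVs and 65.3 to 194 RPM in aid-sEVs, also overlapping. The mesenchymal, endothelial, acinar and muscle sums overlapped between the groups, with ratios of aid-sEV to nid-sEV means of 0.460, 0.442, 0.391 and 0.0512. By entry, 3 of the 9 mesenchymal entries were below without overlap, against 7.52% of all entries, and 0 of the endothelial, acinar and muscle entries were. The part of these differences in the level of miR-124-3p was not tested. miR-375-3p was the most abundant entry in 5 of the 6 libraries, nid-sEV replicate 1 being the other.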

How the data were processed

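Small RNA of sEVs from cultured islets was sequenced in 3 nid-sEV and 3 aid-sEV libraries, grouped by their labelled diet. The authors deposited 1 table of 718 entries with the RPM of each entry in each library. The submitters' processing notes name fastp 0.23.0, HISAT2 2.2.1 and GRCm38. The miRNA reference, the counting tool, its use of strand and the filter are not given in the sources used here. The table's columns with the authors' own comparison (log2 fold changes, p-values and false discovery rates) were not used.

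The smallest RPM above 0 in a library was taken as 1 read, which gave whole reads for 100% of values (tolerance 0.001). Differences were fitted over all entries with limma 3.58.1 (eBayes with trend) in R 4.3.3 on log2(RPM + 1) and had no term but the diet. Entries were called at a log2 difference over 1 with p, adjusted by Benjamini-Hochberg, under 0.05. The fit was also run on simulated reads with the same dispersion for every entry. That is simpler than the spread of these libraries, so it is no check of the calls here. p-values measure only the spread between these samples, which may be technical in part. Intervals are 95% Wilson for levels and exact for shares and ratios, and with the 3-read floor they cover counting error only. edgeR 4.0.16, DESeq2 1.42.0 and the other alternatives are listed with the limits. The members and lists were chosen with earlier results of these data known. Named entries were the members, the 3 entries most like the highest member of each number, the called entries of the brain-enriched list and miR-375-3p. miR-212-5p, which was not called, was named after its values were seen.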

Additional observations from a re-analysis of the deposited data

How the results depend on the processing

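The log2 difference of miR-124-3p was 4.87 to 5.59 under the other settings and 4.76 to 5.64 with each library left out, and the other 9 members gave the opposite sign in 32 of 156 refits. Entries called higher numbered 112 and lower 13. Both counts fell with thinning to the smallest library (65 and 5) and edgeR quasi-likelihood without a filter (56 and 7), and with an adjusted p under 0.01 they were 20 and 0. DESeq2 gave 65 and 50. Higher and lower calls were 62 and 9 with a pseudocount of 10, 69 and 9 at a mean of at least 10 RPM, 55 and 11 with filtered edgeR quasi-likelihood, 61 and 15 with the edgeR exact test, 110 and 8 with a pseudocount of 0.1, and 114 and 8 with centring on the entries in all libraries. TMM left 3 lower calls, with higher calls within 1.5 times of 112. The median log2 difference of all entries shifted by 0.32 with TMM, 0.21 with centring and -0.75 with DESeq2. Brain-enriched calls fell from 8 to 4 with a pseudocount of 10, 4 with a mean of at least 10 RPM and 2 at an adjusted p under 0.01. Leaving out 1 library gave 33 to 150 higher and 1 to 26 lower calls over all entries, and 3 to 12 higher and 0 to 1 lower brain-enriched calls. The lowest higher counts came without nid-sEV replicate 2 (33, 1 lower) and nid-sEV replicate 3 (61). Lower calls were 26 without nid-sEV replicate 1 and 4, 2 and 8 without aid-sEV replicates 1, 2 and 3. Brain-enriched calls were 3 higher without nid-sEV replicate 2, 5 higher and 1 lower without nid-sEV replicate 3, and 1 lower without nid-sEV replicate 1. Cause was not tested.

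With the replicate number as a block in limma, 0 entries were called in either direction, 0 members and 0 brain-enriched miRNAs, with 148 higher and 39 lower at an unadjusted p under 0.05. The labels state no pairing, so the numbers were not taken as pairs. The deviations of same-numbered libraries correlated at -0.053, 0.058 and -0.051, and no library correlated best with its own number. With 3 libraries a group, such values can neither show nor exclude pairing. Depth limits the low members most in the smallest library, nid-sEV replicate 3, where 3 reads are 59.4 RPM.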
